A study of Mus musculus with 12 samples.

Results

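Regulatory T cells (Tregs) hold other immune cells in check, and the transcription factor Foxp3 keeps their identity. Mutant Tregs made in culture were compared here with mutant Tregs taken from the animal, which uses 6 of the 12 libraries of the study. The mutation lies in Gclc, whose product joins glutamate to cysteine in the rate-limiting step of glutathione synthesis. Both compared groups carry it, so the comparison is one of cell state within a single genotype.

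The mutant iTregs were differentiated in vitro from naive CD4 T cells, and the mutant nTregs were sorted as Tregs, in both cases from Gclc mutant C57BL/6 mice aged 8 weeks. Each group has the libraries numbered 1, 2 and 4 by their titles, and these were the rule for choosing them. WT iTregs and WT nTregs of the same strain and age, with 3 libraries each, served only to test where the mutant comparison differs from the same one in WT cells. The sources used here do not give the cells in which Gclc was mutated, the exons removed, the sort markers or the culture medium. They also do not say if each library is its own animal or culture. The p-values therefore measure the spread between these libraries, which may be technical.

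As background, Tregs found in lymphoid organs are mostly of thymic origin, and many carry the transcription factor Helios (Ikzf2) and the receptor Nrp1. A part of them, called effector Tregs, has met antigen and expresses Prdm1, Klrg1, Tigit and tissue-homing receptors. Naive CD4 T cells acquire Foxp3 in culture when the T cell receptor is triggered together with TGF-beta and IL-2, which also starts growth, cholesterol synthesis and division. Dividing T cells draw on serine and one-carbon metabolism for nucleotides, and the transcription factor ATF4 controls many genes of that supply.

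Counts summed to between 34359210 and 37433476 in the mutant iTreg libraries and to between 30851888 and 39886130 in the mutant nTreg libraries. Mutant iTregs had 22308 to 22543 genes with a count, fewer than the 23747 to 24970 of mutant nTregs. Of 17977 genes tested with edgeR's quasi-likelihood test, 12261 (68.2%) passed at an adjusted p below 0.05, with 5968 (33.2%) higher and 6293 (35.0%) lower in iTregs. A change of at least 2-fold was seen for 1538 genes (8.56%) that were higher and 3324 (18.5%) that were lower. The libraries of the 2 groups did not overlap for 68.9% of genes. With so many genes passing, a share of passing members near 68.2% in a group of genes says nothing about that group. Scaling by library size alone in place of TMM, the method that centres most genes near 0, gave 4397 higher and 7832 lower genes, and moved the median log2 fold change of all genes from -0.02 to -0.20. Directions are given below relative to TMM.

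One library of fresh cells stood apart. Counts of mutant nTreg library 1 differed from those of libraries 2 and 4 with a chi-square of 50.8 and 43.3 for each degree of freedom (1 is counting noise alone), while for libraries 2 and 4 it was 11.9. Markers of CD8 T cells and NK cells, cytotoxic cells that a Treg sort should leave out, summed to 1215 CPM in library 1, where CPM is the usual count per library size, scaled here by TMM. They summed to 180 and 162 CPM in libraries 2 and 4. Without library 1, 5797 of 18387 tested genes (31.5%) were higher and 7195 (39.1%) lower, 70.7% in all. Where leaving it out ended a named gene's call in the mutant comparison, or moved a count of a list there by over 1.5 times, both values are given.

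Markers of other cells were lower in the cultured mutant cells than in the sorted ones, to a degree that differed between lists. All 18 B cell markers were lower in mutant iTregs, as were 4 of 5 tested plasma cell markers, 16 of 17 myeloid and dendritic markers, 10 of 13 CD8 and NK markers, 5 of 5 gamma-delta T cell markers, 6 of 7 erythroid and platelet markers and 5 of 5 stromal markers. None of these markers was higher, against 33.2% of all genes. Without nTreg library 1, 1 CD8 and NK marker was higher and 9 lower, and their median log2 fold change moved from -4.33 to -2.19. Without nTreg library 2, 3 of 5 stromal markers were lower. CD8 and NK markers summed to between 64.4 and 83.6 CPM in mutant iTregs, and stromal markers to between 33.5 and 47.9 CPM, against 83.7 to 113 CPM in mutant nTregs. B cell markers summed to between 1558 and 2604 CPM in mutant nTregs and to between 88.1 and 124 CPM in mutant iTregs, where Cd22 and Fcrla were at 0. Erythroid and platelet markers summed to between 180 and 885 CPM in mutant nTregs and to at most 1.58 CPM in iTregs, where the globin genes Hba-a1 and Hba-a2 were at 0. In a bulk library, fewer cells of a type and less RNA per cell cannot be told apart, and the part of such cells in each result below was not tested.

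**Figure D1:**
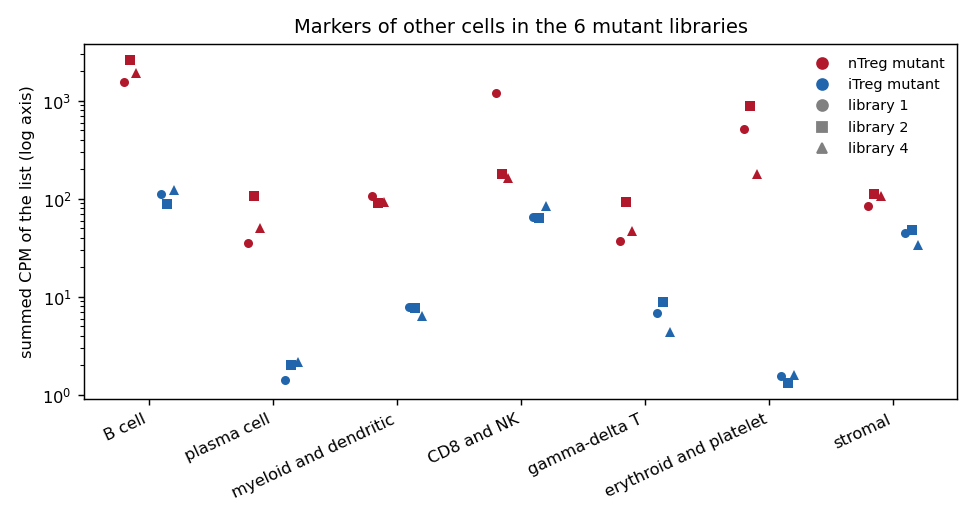
Summed CPM (log axis) of 7 lists of markers of other cells in each of the 6 mutant libraries, with 1 point per library. For every list all 3 mutant nTreg libraries lie above all 3 mutant iTreg libraries, and nTreg library 1 stands at 1215 CPM for CD8 and NK markers.

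Gclc itself was lower in mutant iTregs than in mutant nTregs. The gene (ENSMUSG00000032350) spans positions 77754535 to 77794485 of chromosome 9, plus strand, in GRCm38. It lay at 18.8, 21 and 19 CPM in mutant iTreg libraries 1, 2 and 4, the order used from here on, and at 45.8, 41.7 and 43.2 CPM in mutant nTregs. The 2 groups do not overlap. The log2 fold change was -1.15 ± 0.07 (SE, n = 3 against 3, edgeR adjusted p = 5.99e-08). In WT cells the same comparison gave -0.50, and the difference between the genotypes passed its own test (-0.65 ± 0.10, adjusted p = 0.00381). Since the mutated part of the transcript is not known here, these reads do not measure intact Gclc.

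Other genes of glutathione synthesis went the other way or were barely expressed. Gss, which adds glycine to complete glutathione, lay at 15.1, 13.8 and 16.5 CPM in mutant iTregs and at 9.61, 6.98 and 7.09 CPM in mutant nTregs, without overlap (log2 fold change 0.95 ± 0.12, edgeR adjusted p = 2.54e-05). Gclm, the regulatory partner of Gclc, was higher by 0.36 ± 0.14 (adjusted p = 0.0390), with nTreg library 1 at 240 CPM above iTreg library 2 at 227 CPM. It did not pass when scaled by library size alone (0.17, adjusted p = 0.289), nor without iTreg library 4 (0.25), nTreg library 2 (0.30) or nTreg library 4 (0.27). Slc7a11, the cystine importer, was low throughout, at 0.147, 0.0942 and 0.243 CPM in mutant iTregs and 1.2, 1.85 and 1.86 CPM in mutant nTregs (-3.31 ± 0.37, adjusted p = 6.37e-06). Of 39 tested glutathione genes 14 were higher and 16 lower, with a median log2 fold change of -0.21 beside -0.02 for all genes. In all 76.9% passed, beside 68.2% of all genes, of which 33.2% were higher and 35.0% lower. Abcc4, an exporter of organic anions, was lower (-0.99 ± 0.07), while Glo1, which clears methylglyoxal with the help of glutathione, was higher (0.99 ± 0.06), and so was the microsomal Mgst3 (2.31 ± 0.16).

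The list of NRF2 targets and thioredoxin genes was likewise split, with 11 of 41 higher and 19 lower (median -0.16). Its share of passing members was 73.2%, beside 68.2% of all genes. NRF2 is the transcription factor that drives antioxidant genes. Txnip, the thioredoxin inhibitor whose transcript follows glucose supply, lay at 72.8, 68.8 and 64.9 CPM in mutant iTregs and 227, 366 and 409 CPM in mutant nTregs. All nTreg libraries were above all iTreg libraries (-2.28 ± 0.19, edgeR adjusted p = 6.02e-07). The autophagy adaptor Sqstm1 was also lower (-0.75 ± 0.07). The thioredoxin Txn1 (0.93 ± 0.16), the peroxiredoxin Prdx6 (0.77 ± 0.06) and the small MAF protein Maff (1.98 ± 0.18) were higher.

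Foxp3 was expressed in both kinds of mutant Treg and was lower in the induced ones. The gene (ENSMUSG00000039521) lies on the X chromosome at 7579676 to 7595243, plus strand. It was at 107, 96.4 and 75.5 CPM in mutant iTregs and at 135, 181 and 217 CPM in mutant nTregs. Every nTreg library was above every iTreg library (log2 fold change -0.94 ± 0.15, edgeR adjusted p = 0.000126). WT cells gave -0.98, and the difference between the genotypes did not pass (0.04, adjusted p = 0.933). Cd4, the coreceptor of helper T cells and Tregs, did not pass (-0.05, adjusted p = 0.591), and it was lower without nTreg library 1 (-0.23, adjusted p = 0.00759).

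The widest gap among the Treg identity genes was that of Ikzf2, which encodes Helios. It lay at 23.7, 22 and 64.4 CPM in mutant iTregs and at 563, 737 and 807 CPM in mutant nTregs (log2 fold change -4.26 ± 0.36, edgeR adjusted p = 4.99e-07). iTreg library 4 was the highest of its group and still below every nTreg library. Itgae, the integrin CD103 that holds T cells at epithelia, lay at 8.47, 10.2 and 17.2 CPM against 122, 231 and 186 CPM (-3.91 ± 0.28). Lrrc32, the surface receptor GARP that presents latent TGF-beta, lay at 36.5, 40.7 and 34.6 CPM against 119, 132 and 171 CPM (-1.92 ± 0.15). Sytl2, a protein of vesicle traffic, was lower by -2.38 ± 0.17 on the log2 scale. The inhibitory receptor Ctla4 (-0.98 ± 0.13) and Nrp1 (-0.95 ± 0.17) were lower by about as much as Foxp3.

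Other core genes were higher in the induced cells or did not pass. Il2ra, the high-affinity IL-2 receptor chain CD25, lay at 1698, 1566 and 1550 CPM in mutant iTregs and at 685, 691 and 715 CPM in mutant nTregs (log2 fold change 1.20 ± 0.07, edgeR adjusted p = 3.12e-08). The groups do not overlap. The cytokine signal inhibitor Socs2 (1.75 ± 0.15) and the MAP kinase phosphatase Dusp4 (2.24 ± 0.12) were also higher. Ikzf4, the Helios relative Eos, lay at 128, 131 and 136 CPM against 97.5, 136 and 141 CPM and did not pass (adjusted p = 0.611). Tnfrsf18, the costimulatory receptor GITR, did not pass either (-0.17, adjusted p = 0.276). In all, 8 of 30 core Treg genes were higher and 17 lower (6 and 18 without nTreg library 1), with a median of -0.89. Together 83.3% passed, beside 68.2% of all genes, of which 33.2% were higher and 35.0% lower.

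Of 36 effector Treg genes 26 were lower and 5 higher, with a median of -1.20, and 86.1% passed, beside 68.2% of all genes. Prdm1, the transcription factor Blimp-1, lay at 0.0294, 0.188 and 0.121 CPM in mutant iTregs and at 39.6, 33.6 and 32.5 CPM in mutant nTregs (log2 fold change -8.26 ± 0.32, edgeR adjusted p = 9.76e-10). Klrg1, a receptor of terminally differentiated Tregs and of NK cells, had 0 counts in mutant iTregs and was at 45.1, 23.6 and 11.2 CPM in mutant nTregs. This makes it at least 860-fold lower, set against 3 counts over the group. The inhibitory receptor Tigit lay at 6.47, 5.87 and 6.4 CPM against 64.1, 79.8 and 68 CPM (-3.50 ± 0.10). Tnfrsf8, the receptor CD30 (-4.86 ± 0.17), and Il10ra, a chain of the IL-10 receptor (-2.34 ± 0.11), were lower as well. Against this direction, Irf4, a transcription factor induced by antigen receptor signals, was at 661, 659 and 762 CPM in mutant iTregs and 121, 161 and 165 CPM in mutant nTregs (2.22 ± 0.13). The chemokine receptor Ccr8 was higher too (1.91 ± 0.15).

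Gzmb, the protease granzyme B, showed how far a value can rest on nTreg library 1. It lay at 26.2, 19.6 and 33.7 CPM in mutant iTregs and at 585, 56 and 37.2 CPM in mutant nTregs. With all libraries it was lower in iTregs (log2 fold change -3.09, edgeR adjusted p = 0.00593), and without library 1 it did not pass (-0.89, adjusted p = 0.0511). Cd8a, which defines cytotoxic T cells, lay at 219, 19.1 and 27.2 CPM in mutant nTregs and at 1.24 to 2.29 CPM in mutant iTregs.

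**Figure D2:**
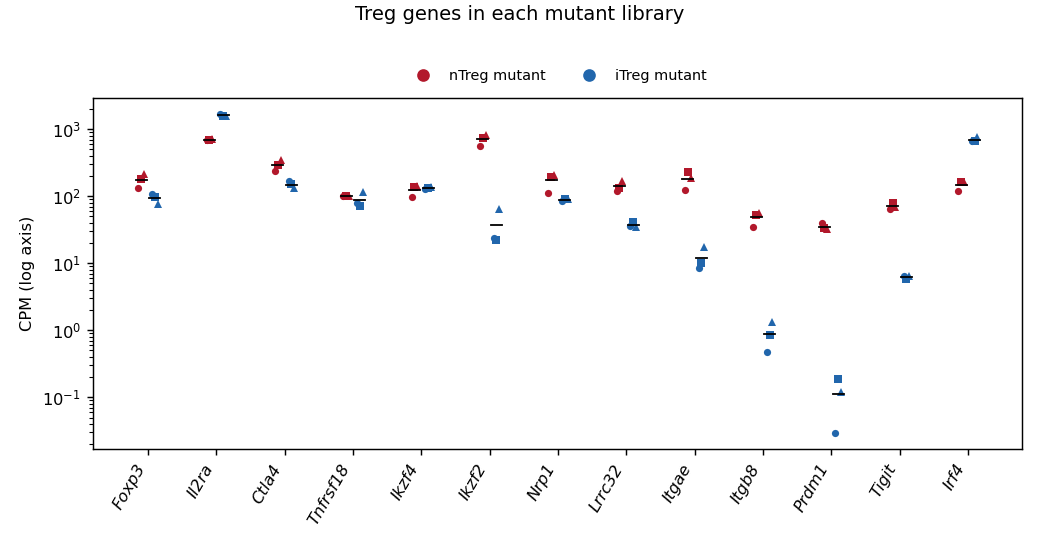
CPM (log axis) of 13 Treg genes in the 3 mutant nTreg libraries (red) and the 3 mutant iTreg libraries (blue), with a bar at each group mean. Circles, squares and triangles are libraries 1, 2 and 4. Foxp3, Ikzf2, Itgae and Prdm1 lie lower in iTregs, Il2ra and Irf4 higher, and Ikzf4 and Tnfrsf18 overlap.

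Genes of resting and recirculating T cells were partly lower in the cultured cells. Of 25 tested, 13 were lower and 6 higher (median -0.58). The share that passed was 76%, beside 68.2% of all genes. Il7r, the IL-7 receptor that keeps resting T cells alive, lay at 31.7, 29 and 42.5 CPM in mutant iTregs and 181, 279 and 248 CPM in mutant nTregs (log2 fold change -2.78 ± 0.22, edgeR adjusted p = 3.55e-07). S1pr1, which guides T cells out of lymphoid organs, was lower by -1.35 ± 0.11. Bach2, a repressor of effector programmes, went the other way at 266, 284 and 270 CPM against 59.4, 99.1 and 95.8 CPM (1.69 ± 0.14). Igfbp4 (2.44 ± 0.32) and Dapl1 (2.72 ± 0.29) were also higher. All 8 GIMAP genes, small GTPases that support survival of lymphocytes, were lower (median -2.14), against 35.0% of all genes. Gimap3 lay at 189, 173 and 126 CPM against 812, 719 and 878 CPM (-2.30 ± 0.14). Gimap1 (-1.45 ± 0.07), Gimap5 (-2.31 ± 0.08) and Gimap8 (-1.99 ± 0.11) followed.

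Receptors that place T cells in tissues were mostly lower. Of 30 chemokine receptor and integrin genes, 22 were lower and 7 higher (median -1.96), and 96.7% passed, beside 68.2% of all genes. Ccr2, a receptor for inflammatory chemokines, lay at 0.147, 0.126 and 0.243 CPM in mutant iTregs and 144, 87.8 and 45.4 CPM in mutant nTregs (log2 fold change -9.04 ± 0.52, edgeR adjusted p = 2.16e-08). The gut-homing integrin chains Itga4 (-2.01 ± 0.07) and Itgb7 (-1.92 ± 0.11) were lower together. Itga4 lay at 139, 155 and 146 CPM against 566, 613 and 596 CPM. Ccr4, a skin-homing receptor, was higher at 175, 161 and 207 CPM against 27.4, 70.5 and 52.1 CPM (1.85 ± 0.25).

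The TGF-beta list, which holds ligands, receptors, mediators and targets, was balanced. Of 28 tested members 11 were higher and 9 lower (median -0.01). The 71.4% that passed lie near the 68.2% of all genes. Without nTreg library 1 the counts were 10 and 11, and 9 and 10 by library size alone. Pmepa1, a feedback inhibitor induced by TGF-beta, lay at 66.3, 67.9 and 63.9 CPM in mutant iTregs and 18, 23.6 and 26.2 CPM in mutant nTregs (log2 fold change 1.55 ± 0.11, edgeR adjusted p = 1.06e-07). Itgav, the integrin chain that pairs with Itgb8 to release active TGF-beta, was higher (0.79 ± 0.09). Its partner Itgb8 was at 0.471, 0.847 and 1.31 CPM against 35.3, 52.7 and 56.6 CPM (-5.78 ± 0.27). The pair thus moved in opposite directions.

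Genes of T cell receptor signalling were lower by small amounts. Of 33 tested, 22 were lower and 5 higher (median -0.31), and 81.8% passed, beside 68.2% of all genes. Cd247, the zeta chain that carries the signal inward, lay at 96.8, 92.9 and 101 CPM in mutant iTregs and 174, 153 and 175 CPM in mutant nTregs (log2 fold change -0.79 ± 0.06, edgeR adjusted p = 4.16e-07). The kinase Fyn (-0.86 ± 0.08) and the adaptor Sla2 (-1.43 ± 0.10), which dampens the receptor, were lower. Malt1, the protease that links the receptor to NF-kappa-B, was higher at 383, 367 and 301 CPM against 118, 139 and 140 CPM (1.40 ± 0.09), as was the costimulatory receptor Cd28 (0.69 ± 0.09).

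Genes switched on by recent stimulation were more often higher, with 15 of 30 higher and 8 lower (median 0.32). The share that passed was 76.7%, beside 68.2% of all genes. Nr4a3, a nuclear receptor induced by antigen, lay at 273, 313 and 357 CPM in mutant iTregs and 44.6, 53.9 and 51.5 CPM in mutant nTregs (log2 fold change 2.65 ± 0.12, edgeR adjusted p = 3.52e-09). Its relative Nr4a2 (1.91 ± 0.16) and the NF-kappa-B subunit Rel (1.15 ± 0.09) were higher. The phosphatase Dusp1 (-1.15 ± 0.31) and the NF-kappa-B regulator Nfkbiz (-1.15 ± 0.08) were lower.

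Cytokine genes moved in both directions and by large steps. Of 30 tested, 16 were higher and 10 lower (median 0.94). In all 86.7% passed, beside 68.2% of all genes, of which 33.2% were higher and 35.0% lower. The share of cytokine genes that was lower is thus near that of all genes. Il9, a cytokine of mast cell and mucosal responses, lay at 13.2, 10.3 and 17.8 CPM in mutant iTregs, with a single count in the mutant nTregs. The ratio was 1498, with a 95% counting interval of 268 to 59204 that covers counting error only. Il17f, a cytokine of Th17 cells, lay at 69.7, 47.2 and 90.3 CPM against 0.126, 0.411 and 0.335 CPM (log2 fold change 7.82 ± 0.34, edgeR adjusted p = 2.39e-09). Il17a, the related cytokine, lay at 1.5, 1.07 and 2.61 CPM in mutant iTregs and was also higher (4.49 ± 0.52). Lymphotoxin Lta (2.65 ± 0.12) and Tnf (2.04 ± 0.10) were higher. Il2, the growth factor that Tregs normally do not make, lay at 17, 24.6 and 45.4 CPM against 5.5, 4.95 and 5.14 CPM (2.48 ± 0.30).

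The cytokines that were lower included products of Th1, follicular and cytotoxic cells. Ccl5, a chemokine stored by memory and cytotoxic T cells, lay at 0.118, 0.0314 and 0.152 CPM in mutant iTregs and 42.2, 29.1 and 34.2 CPM in mutant nTregs (log2 fold change -8.39 ± 0.30, edgeR adjusted p = 4.22e-09). Il21, the cytokine of follicular helper cells, was lower by -6.58 ± 0.49. Ifng, the Th1 cytokine interferon gamma, lay at 1.32, 0.345 and 0.516 CPM against 72.8, 5.61 and 4.35 CPM (-5.22, adjusted p = 0.000678). Here nTreg library 1 held the high value, and without it the log2 fold change was smaller at -2.84 (adjusted p = 6.68e-05).

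Among factors that set helper lineages, 18 of 28 were lower and 6 higher (median -1.04), and 85.7% passed, beside 68.2% of all genes. Irf8, a factor shared by lymphoid and myeloid cells, lay at 235, 214 and 201 CPM in mutant iTregs and 58.7, 45.7 and 36.9 CPM in mutant nTregs (log2 fold change 2.20 ± 0.13, edgeR adjusted p = 2.99e-08). Irf1 (-2.42 ± 0.16), which interferon induces, and Batf (-2.65 ± 0.15), a partner of Irf4, were lower.

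The interferon response was lower nearly throughout. Interferon-stimulated genes (ISGs) encode antiviral enzymes, guanylate-binding proteins and antigen-processing factors, and they are switched on when transcription factors activated by the interferon receptor bind the interferon-stimulated response element (ISRE). Of 50 tested ISGs 48 were lower in mutant iTregs and none was higher, against 35.0% and 33.2% of all genes (without nTreg library 1, 47 and 1, and 1 higher also without iTreg library 2). The median log2 fold change was -2.09. Oas1a, which senses double-stranded RNA, lay at 0.677, 0.659 and 0.941 CPM in mutant iTregs and 23.2, 20.6 and 24 CPM in mutant nTregs (-4.89 ± 0.17, edgeR adjusted p = 4.71e-10). Irf7, the amplifier of type I interferon, lay at 1.26, 0.973 and 1.15 CPM against 36.5, 29.8 and 25.2 CPM (-4.75 ± 0.16). Rtp4 (-3.97 ± 0.12) and Xaf1 (-3.05 ± 0.09) were lower too. Ifit2 (-0.31, adjusted p = 0.0560) and Bst2 (0.29, adjusted p = 0.0801) did not pass.

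The promoters of these genes were searched on both strands for the core of the ISRE, GAAA followed after 2 bases of any kind by GAAA. Of the 50 genes 35 had a promoter entry in RefSeq (GRCm38.p6), and 17 of these (48.6%) held a match in the 250 bases before the start. Among all 27025 genes with an entry 936 (3.46%) held one. The list holds genes known to answer interferon, so a share above that of all genes could be foreseen from its choice. This share adds nothing about the change in these cells. The 150 bases directly before the start of 4 of the 17 are shown, for an ubiquitin-like modifier, an RNA-binding antiviral protein, an RNA sensor and an immunity-related GTPase, with the matches in capitals and each written on the strand of its gene.
Isg15 (chr4:156200819-156200968, minus strand): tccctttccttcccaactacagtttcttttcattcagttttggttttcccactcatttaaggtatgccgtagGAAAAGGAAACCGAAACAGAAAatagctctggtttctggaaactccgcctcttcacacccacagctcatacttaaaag
Ifit1 (chr19:34640739-34640888, plus strand): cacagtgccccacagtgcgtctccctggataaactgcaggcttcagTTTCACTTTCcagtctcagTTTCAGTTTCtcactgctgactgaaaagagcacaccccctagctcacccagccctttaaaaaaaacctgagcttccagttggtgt
Oas1a (chr5:120907526-120907675, minus strand): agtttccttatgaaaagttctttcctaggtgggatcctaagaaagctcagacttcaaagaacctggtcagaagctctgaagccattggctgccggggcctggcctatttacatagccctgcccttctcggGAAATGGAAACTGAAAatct
Irgm1 (chr11:48871421-48871570, minus strand): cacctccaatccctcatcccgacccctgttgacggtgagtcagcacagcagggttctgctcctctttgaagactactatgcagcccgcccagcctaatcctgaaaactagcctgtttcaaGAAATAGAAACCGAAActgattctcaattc
The first match, read 5′ to 3′, began 104 bases before the start in Ifit1, 78 in Isg15, 30 in Irgm1 and 20 in Oas1a. Isg15 was at 0.647, 0.439 and 0.304 CPM in mutant iTregs and 13.2, 9.17 and 10.4 CPM in mutant nTregs (log2 fold change -4.54 ± 0.29, edgeR adjusted p = 4.75e-08). Ifit1 (-3.86 ± 0.18) and Irgm1 (-1.66 ± 0.17) were also lower. Bst2, which did not pass, held 2 matches as well. A match is a description of the letters and does not show that a factor binds there.

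Division genes were higher in mutant iTregs nearly throughout, against 33.2% of all genes. Of 40 tested genes of DNA replication and S phase 37 were higher and none lower (median 1.01), and of 37 mitosis genes 35 were higher and none lower (median 1.17). Mki67, the proliferation antigen Ki-67, lay at 1880, 1979 and 1602 CPM in mutant iTregs and 1156, 744 and 707 CPM in mutant nTregs (log2 fold change 1.07 ± 0.21, edgeR adjusted p = 0.000617). nTreg library 1 was the highest of its group and below every iTreg library. Ccne2, a cyclin of S phase entry, lay at 96.1, 101 and 92.5 CPM against 38.4, 19.2 and 21.1 CPM (1.88 ± 0.22). The replication genes Pole (1.21 ± 0.13) and Prim1 (1.38 ± 0.12) were higher. Cdc45, of the replicative helicase, was higher too, at 90, 90 and 88.1 CPM in mutant iTregs and 45.1, 25.4 and 24.3 CPM in mutant nTregs. So were the mitotic genes Bub1 (1.68 ± 0.22), Nusap1 (1.56 ± 0.21), Smc2 (1.47 ± 0.19) and Ncapd2 (0.97 ± 0.13). Replication list members that did not pass were E2f2, Tk1 and Chaf1b.

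The gap in division genes was narrower in mutant than in WT cells. The WT medians were 1.87 for replication and 2.12 for mitosis. The difference between genotypes passed for 25 of 40 replication genes and 14 of 37 mitosis genes in the direction of a smaller mutant change, against 7.18% of all genes in that direction, and for 1 mitosis gene in the other. Leaving out 1 library at a time gave 13 to 34 replication genes and 6 to 25 mitosis genes downward. Library size alone gave 38 and 28, against 13.3% of all genes. E2f1, the factor that starts S phase, lay at 23.9, 23.7 and 22.7 CPM in mutant iTregs, 16.4, 13.3 and 11.6 CPM in mutant nTregs, 25.3, 29.7 and 29.3 CPM in WT iTregs and 5.36, 5.69 and 4.43 CPM in WT nTregs. Mutant nTregs lay above WT nTregs and mutant iTregs below WT iTregs, without overlap in either case (difference -1.67 ± 0.18, edgeR adjusted p = 0.00156).

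MYC and ribosome biogenesis genes followed the same direction. Of 35 tested, 31 were higher and 1 lower (median 0.60), and 91.4% passed, beside 68.2% of all genes. Leaving out mutant nTreg library 1, nTreg library 4 or iTreg library 4 gave 3 lower members. Myc itself lay at 95.9, 97.8 and 103 CPM in mutant iTregs and 58, 66 and 82 CPM in mutant nTregs (log2 fold change 0.53 ± 0.10, edgeR adjusted p = 0.000577). The nucleolar genes Gnl3 (0.93 ± 0.08), Utp20 (0.85 ± 0.08), Wdr12 (0.79 ± 0.07) and Nop14 (0.60 ± 0.06) were higher. Bop1, another ribosome assembly factor, was the single member that was lower (-0.43 ± 0.10).

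Targets of p53, the factor that answers DNA damage, were higher beside the division genes, with 20 of 31 higher and 6 lower (median 0.64). In all 83.9% passed, beside 68.2% of all genes. Cdkn1a, the cell cycle inhibitor p21, lay at 180, 162 and 266 CPM in mutant iTregs and 29.5, 18.3 and 19.6 CPM in mutant nTregs (log2 fold change 3.18 ± 0.23, edgeR adjusted p = 1.29e-07). In WT cells the log2 fold change was 5.90, and the difference passed (-2.72 ± 0.34, adjusted p = 0.00171). Zmat3 (1.57 ± 0.11), an RNA-binding p53 target, Polk (1.11 ± 0.08), a lesion-bypass polymerase, and Ei24 (1.04 ± 0.08) were higher. Trp73, the p53 relative, was low in both, with 3 counts in all over mutant iTregs and a ratio of 38.9 in favour of nTregs (95% counting interval 13 to 191). Pltp, a lipid transfer protein, was also lower (-3.34 ± 0.49).

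Of 37 tested sterol and fatty acid genes 25 were higher and 3 lower (median 0.68), with 5 lower without nTreg library 1. With all libraries 75.7% passed, beside 68.2% of all genes. Idi1, an isomerase early in the pathway, lay at 361, 364 and 435 CPM in mutant iTregs and 65.3, 45.2 and 52.3 CPM in mutant nTregs (log2 fold change 2.83 ± 0.15, edgeR adjusted p = 1.35e-08). Hmgcs1, an enzyme of the entry to the pathway, lay at 226, 214 and 222 CPM against 64.2, 49.3 and 52.9 CPM (1.99 ± 0.12). The later enzymes Cyp51 (1.99 ± 0.08) and Msmo1 (1.63 ± 0.08) were higher. The cholesterol exporters Abca1 (-0.95 ± 0.20) and Abcg1 (-1.34 ± 0.14) were lower, in contrast to these enzymes.

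Glycolysis and hypoxia genes were mixed, with 16 of 38 higher and 5 lower (median 0.08), and with 13 and 12 when scaled by library size alone. With TMM 55.3% passed, fewer than the 68.2% of all genes. Vegfa, a hypoxia-induced growth factor, lay at 6.18, 6.12 and 5.19 CPM in mutant iTregs and 0.758, 0.958 and 0.548 CPM in mutant nTregs (log2 fold change 2.92 ± 0.25, edgeR adjusted p = 6.3e-07). The oxygen sensor Egln3 (2.03 ± 0.24) and the lactate exporter Slc16a3 (1.18 ± 0.13) were higher. The glucose transporter Slc2a3 was lower at 25.8, 27.2 and 24.9 CPM against 103, 60.7 and 57.7 CPM (-1.51 ± 0.18), as was the stress gene Ndrg1 (-0.49 ± 0.13).

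Nuclear genes of the respiratory chain were higher by small amounts, with 41 of 67 higher and 5 lower (median 0.29). The share that passed in either direction, 68.7%, is near the 68.2% of all genes, of which 33.2% were higher. No member changed 2-fold, and library size alone gave 23 and 13. Leaving out iTreg library 1, iTreg library 2 or nTreg library 2 gave 3 lower members, and leaving out iTreg library 4 gave 8. Ndufab1 (0.47 ± 0.06), Uqcrh (0.54 ± 0.07), Ndufb2 (0.56 ± 0.08) and Ndufb5 (0.46 ± 0.07), subunits of complexes I and III, were higher, while the complex I subunits Ndufb7 (-0.81 ± 0.12) and Ndufs7 (-0.72 ± 0.16) were lower. Of 13 genes encoded in mitochondrial DNA 8 were higher and none lower (median 0.42). The 61.5% that passed compare with 68.2% of all genes, of which 33.2% were higher. For these 13 genes library size alone gave 6 higher and none lower (median 0.23). The light-strand gene mt-Nd6 stood out at 219, 113 and 83.2 CPM against 14.9, 8.42 and 13.8 CPM (3.49 ± 0.33). Reads from the mitochondrial chromosome made up 4.66% to 6.02% of counts in mutant iTregs and 4.1% to 5.12% in mutant nTregs, and these ranges overlap.

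Of 26 genes of the unfolded protein response 9 were lower and 4 higher (median -0.08), and 10 and 7 without nTreg library 1. The share that was lower is near the 35.0% of all genes. The sensors Ern1 (-1.67 ± 0.21) and Atf6 (-1.10 ± 0.14) and the degradation ligase Syvn1 (-0.84 ± 0.10) were lower. Ern1 lay at 10.2, 10.3 and 11.1 CPM in mutant iTregs and 46.9, 31.5 and 22.2 CPM in mutant nTregs. The chaperone Canx (0.82 ± 0.12) and the transcription factor Xbp1 (0.55 ± 0.09) were higher.

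Serine and one-carbon genes were more often higher in mutant iTregs. Of 37 tested members 26 were higher and 3 lower (median 0.41), and 78.4% passed, beside 68.2% of all genes. Phgdh, which opens serine synthesis, lay at 107, 106 and 113 CPM in mutant iTregs and 78.7, 76.5 and 71.5 CPM in mutant nTregs (log2 fold change 0.52 ± 0.07, edgeR adjusted p = 2.03e-05). Psat1, the next enzyme, lay at 182, 176 and 177 CPM against 136, 109 and 108 CPM (0.60 ± 0.09). In neither gene do the groups overlap. Shmt1 (0.98 ± 0.13), the cytosolic enzyme that splits serine, and Mthfd2 (0.70 ± 0.09), a mitochondrial folate enzyme, were higher. Mitochondrial Shmt2 lay at 75.3, 78 and 86.8 CPM against 80.1, 65.4 and 64.2 CPM and did not pass (0.20, adjusted p = 0.116). The purine enzymes Paics (1.15 ± 0.11) and Pfas (1.18 ± 0.08) and Ahcy (1.36 ± 0.15), of the methyl cycle, were higher, and Ggh, which shortens folate chains, was lower (-0.91 ± 0.12).

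Of the transporters that bring serine in, Slc1a4 was higher, at 13, 12 and 13.4 CPM in mutant iTregs against 2.62, 4.13 and 4.62 CPM in mutant nTregs (log2 fold change 1.75 ± 0.20, edgeR adjusted p = 6.78e-06). Slc1a5, a carrier of glutamine and other neutral amino acids, did not pass (-0.04, adjusted p = 0.669).

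The ATF4 list differed between genotypes. ATF4 is made when cells lack amino acids or meet stress in the endoplasmic reticulum or mitochondria, and it drives enzymes and carriers that supply amino acids. In mutant cells 21 of 44 members were higher in iTregs and 3 lower (median 0.34), and in WT cells 35 and 3 (median 1.06). In the mutant comparison 54.5% passed, fewer than the 68.2% of all genes. The difference between genotypes passed for 21 of 44 members, every one with the lower change in the mutant, against 7.18% of all genes in that direction. Scaled by library size alone, the difference passed downward for 27 members against 13.3% of all genes, and without nTreg library 1 for 27 against 11.7%. Over all single libraries left out it passed for 15 to 27 members and upward for none. In the mutant comparison 15 members were higher and 8 lower by library size alone, and 6 were lower without nTreg library 1.

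Asns, which makes asparagine, lay at 14.4, 15.4 and 16.7 CPM in mutant iTregs and 21.5, 17.7 and 18.6 CPM in mutant nTregs and did not pass (log2 fold change -0.32, edgeR adjusted p = 0.0593). In WT cells it lay at 9.79, 11.3 and 10.5 CPM in iTregs and 2.51, 2.69 and 1.61 CPM in nTregs (2.22). The difference was -2.53 ± 0.21 (adjusted p = 0.000292). For Asns, Slc1a4, Phgdh, Psat1, Shmt2 and Mthfd2 every mutant nTreg library was above every WT nTreg library. The share of all genes for which this holds was not counted, so it is not known if these genes stand out. Stc2, a secreted stress glycoprotein, was the member that was lowest in mutant iTregs, at 0.0882, 0.22 and 0.121 CPM against 3.29, 3.58 and 3.92 CPM in mutant nTregs (-4.63 ± 0.33).

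**Figure D3:**
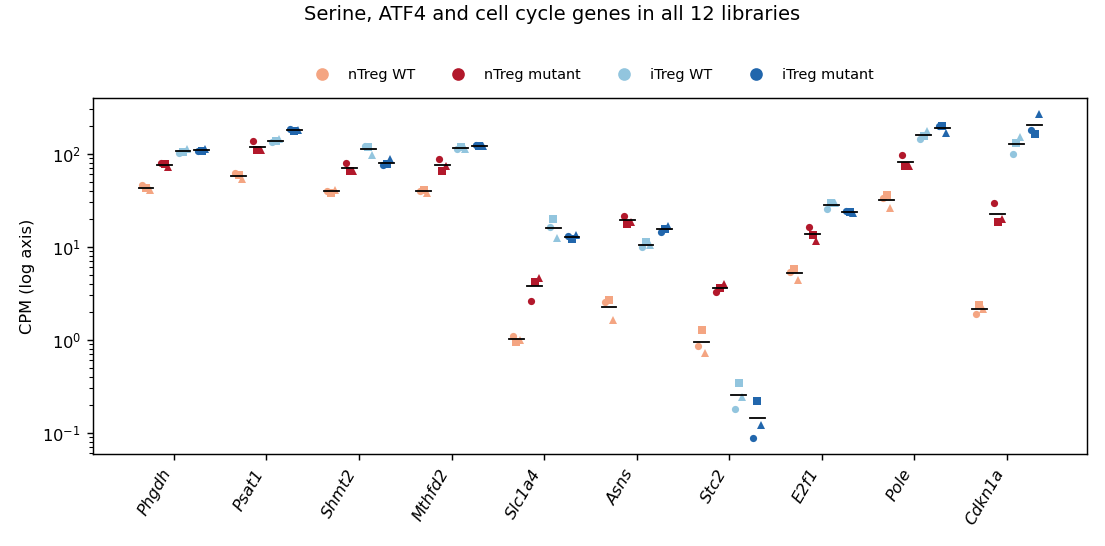
CPM (log axis) of 10 serine, ATF4 and cell cycle genes in all 12 libraries, 3 in each of 4 groups, with a bar at each group mean. Asns lies between 9.79 and 21.5 CPM in both mutant groups and in WT iTregs, and at 1.61 to 2.69 CPM in WT nTregs.

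Some ATF4 targets changed in both directions within the mutant comparison, and their promoters hold the same letters. Of 46 list genes 38 had a RefSeq promoter entry (GRCm38.p6), and 10 of these (26.3%) held TGATGCAA on either strand in the 250 bases before the start, against 248 of 27025 (0.918%) of all genes. This is the element that ATF4 and a C/EBP partner are known to bind. The list was chosen as ATF4 genes, so a share above that of all genes could be foreseen and adds nothing about these cells. Aars, Tars and Herpud1 held a match in the last 150 of these bases and did not pass in the mutant comparison (log2 fold changes 0.23, 0.22 and -0.18). Fgf21 held one too and was not tested. Shown are the 150 bases before the start of 3 genes that were higher and 1 that was lower, with the matches in capitals.
Nupr1 (chr7:126625471-126625620, minus strand): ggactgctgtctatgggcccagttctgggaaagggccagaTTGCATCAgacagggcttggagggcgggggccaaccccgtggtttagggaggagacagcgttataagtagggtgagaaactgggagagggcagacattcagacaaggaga
Atf3 (chr1:191183334-191183483, minus strand): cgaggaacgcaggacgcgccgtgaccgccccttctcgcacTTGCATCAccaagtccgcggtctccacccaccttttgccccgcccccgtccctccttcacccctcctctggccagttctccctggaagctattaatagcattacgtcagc
Pycr1 (chr11:120643749-120643898, minus strand): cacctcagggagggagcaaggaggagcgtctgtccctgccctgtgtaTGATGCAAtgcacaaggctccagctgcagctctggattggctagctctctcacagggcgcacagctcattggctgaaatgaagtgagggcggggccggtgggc
Slc7a11 (chr3:50443614-50443763, minus strand): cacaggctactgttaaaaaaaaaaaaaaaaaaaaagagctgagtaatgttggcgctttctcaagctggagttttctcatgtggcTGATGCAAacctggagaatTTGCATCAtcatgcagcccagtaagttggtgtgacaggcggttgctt
Nupr1, a stress-induced chromatin protein, lay at 23.7, 17.1 and 23.7 CPM in mutant iTregs and 0.537, 1 and 0.852 CPM in mutant nTregs (log2 fold change 4.72 ± 0.24, edgeR adjusted p = 7.48e-09). Atf3, a partner factor induced by stress (2.11 ± 0.20), and Pycr1, an enzyme of proline synthesis (0.68 ± 0.24), were higher. Pycr1 did not pass without nTreg library 1 (0.44, adjusted p = 0.134) or by library size alone (0.48, adjusted p = 0.104). It also did not pass without iTreg library 1 (0.66) or iTreg library 4 (0.65), with DESeq2 (0.64), or with a replicate block on the 6 mutant libraries (0.66). Slc7a11, which holds 2 copies of the element, was lower, as given above.

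The 12 largest differences toward the cultured cells lay at genes with few or no counts in mutant nTregs. Pdpn, the membrane glycoprotein podoplanin, lay at 23, 12.8 and 21.1 CPM in mutant iTregs and had 0 counts in mutant nTregs, at least 689-fold higher against 3 counts over the group. Akr1c18, a steroid-metabolising reductase, lay at 75.4, 90.2 and 55.2 CPM against 0.0632, 0.183 and 0.0304 CPM (log2 fold change 9.46 ± 0.33, edgeR adjusted p = 4.72e-10). Cyp11a1, which makes pregnenolone from cholesterol, lay at 28.9, 21.1 and 31.7 CPM against 0.348, 0.251 and 0.122 CPM (6.81 ± 0.40). Slc4a11, a membrane transporter, lay at 82.6, 59.6 and 90.5 CPM against 0.316, 0.525 and 0.274 CPM (7.64 ± 0.24). Cyp1a1 (6.87 ± 0.30) and Cyp1b1 (7.65 ± 0.40), oxygenases induced through the aryl hydrocarbon receptor, were both higher, and so was the gap junction gene Gja5 (7.06 ± 0.52). Gap43, Lhx6 and Acsl6 had 1, 1 and 2 counts in all over mutant nTregs, with ratios of 1018, 813 and 537. Lhx6 was uneven among iTreg libraries, at 12.7, 8.29 and 1.34 CPM.

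The 12 largest differences toward the fresh cells were at globin, B cell, cytotoxic and NK receptor genes, Klrg1 among them. Hba-a2 and Hba-a1 were at least 4554-fold and 3930-fold lower in mutant iTregs, against 3 counts over the group, and Hbb-bs and Hbb-bt had 1 count each there. The 2 genes of each globin pair share most of their sequence, so reads may have been counted at both. Cd22 was at least 1950-fold lower and Fcrla at least 537-fold lower. Gzma lay at 220, 15.9 and 5.75 CPM and Gzmk at 81.8, 6.91 and 9.77 CPM in mutant nTregs, and both had 0 counts in mutant iTregs. The NK receptor genes Ncr1 and Klrb1b also had 0 counts there. Of the 3324 genes that were at least 2-fold lower, 669 had at most 3 counts summed over the mutant iTreg libraries, and 389 of these had none. Of the 1538 that were at least 2-fold higher, 40 had at most 3 counts summed over the mutant nTreg libraries.

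**Figure D4:**
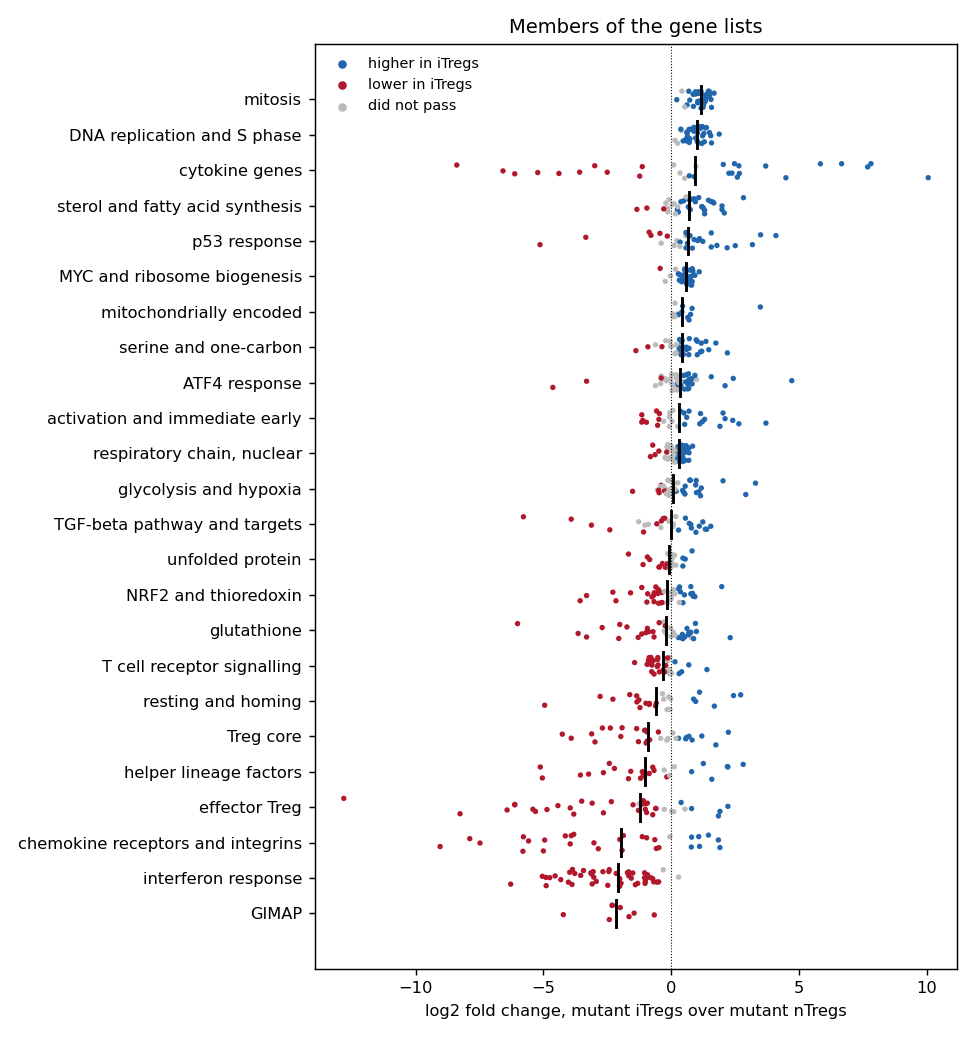
Log2 fold change of each tested member of 24 gene lists, mutant iTregs over mutant nTregs, with a bar at the median of each list. Blue points are higher and red points lower at an adjusted p below 0.05, and grey points did not pass. GIMAP and interferon genes lie almost wholly to the left of 0, and mitosis and replication genes to the right.

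Across genes the mutant comparison resembled the WT one, which shares no library with it. In WT cells 6066 genes were higher and 6420 lower (69.5% passed). Of the genes that passed in mutant cells 79.8% passed in the same direction in WT cells, which is 78.3% of those that passed in WT cells. The log2 fold changes of the 2 genotypes had a Pearson correlation of 0.935 and a Spearman correlation of 0.865 over 17977 genes, which are not independent replicates. The difference between genotypes passed for 2392 genes (13.3%), with 1101 (6.12%) higher and 1291 (7.18%) lower in the mutant. Scaled by library size alone, 518 were higher and 2393 lower, so that split depends on the scaling. Leaving out nTreg library 1 of the mutant gave 1070 higher and 2146 lower. Passing in opposite directions was seen for 185 genes, of which 92 were higher in mutant iTregs and 93 lower.

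**Figure D5:**
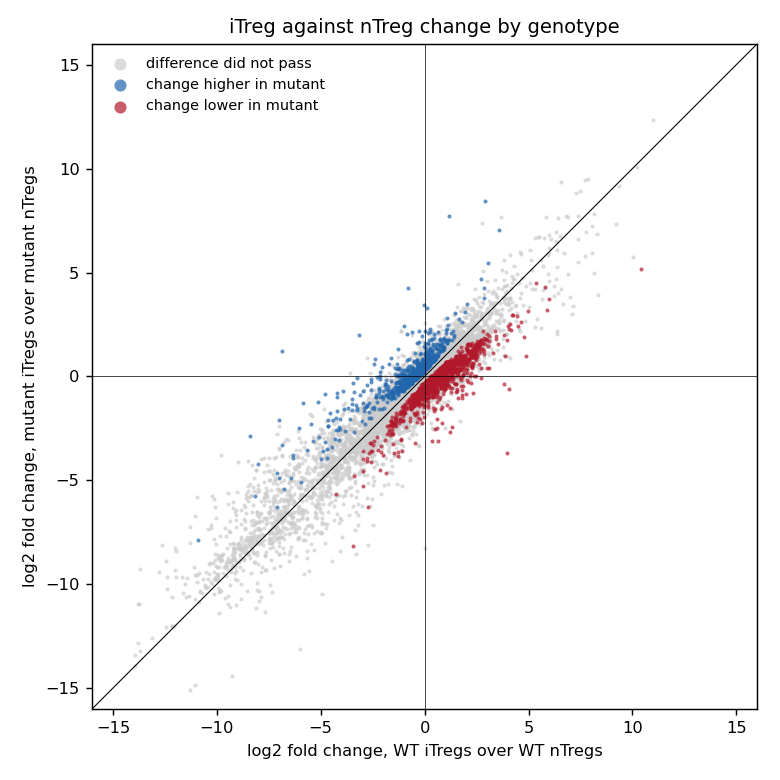
Log2 fold change of iTregs over nTregs for 17977 genes in WT cells (x axis) and in mutant cells (y axis), with the line of equality. Blue and red points are the 1101 and 1291 genes whose difference between genotypes passed, and most points lie near the line.

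Of the 6 largest genotype differences upward among genes whose mean reached 5 CPM in any group, Gja5 was higher in iTregs of both genotypes and more so in the mutant (3.48). The other genes were lower in WT iTregs, and less so or not past the threshold in the mutant. Abi3bp, an extracellular matrix protein, lay at 0.5, 0.565 and 0.759 CPM in mutant iTregs and 2.28, 4.36 and 3.56 CPM in mutant nTregs. The difference from WT cells, where iTregs were at 0.054 to 0.143 CPM, was 3.59 ± 0.58 (edgeR adjusted p = 0.00432). Bcar3, an adaptor of integrin signalling (3.57 ± 0.73), and Fcmr, the IgM receptor (2.58 ± 0.57), were likewise lower in iTregs of both genotypes and less so in the mutant. Cd36, the fatty acid and lipoprotein receptor, lay at 4.88, 6.53 and 11.3 CPM against 2.47, 6.98 and 2.89 CPM in mutant cells, which did not pass (adjusted p = 0.0628), and was lower in WT iTregs (-2.41, difference 3.27 ± 0.58). F13a1, the coagulation factor XIII subunit, did not pass in the mutant (-0.79, adjusted p = 0.131; without nTreg library 1, -1.23, adjusted p = 0.00929) and was lower in WT iTregs (-4.23, difference 3.44 ± 0.62).

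For the 6 largest differences downward among genes whose mean reached 5 CPM in any group, each mutant nTreg library lay above each WT nTreg library. Choosing genes by this difference favours high mutant nTreg and low WT nTreg values, so the pattern is in part built in. The share of all genes that show it was not counted. Adam11 lay at 0, 0.0942 and 0.0911 CPM in mutant iTregs and 5.18, 4.66 and 5.57 CPM in mutant nTregs, and at 0.882, 1.75 and 1.95 CPM in WT nTregs (difference -3.58 ± 0.76, edgeR adjusted p = 0.0114). Ifitm1, an interferon-induced membrane protein, lay at 13, 4.22 and 3.29 CPM in mutant nTregs and at 0.441 to 0.640 CPM in WT nTregs (-3.46 ± 0.76). Ggt1, which breaks down extracellular glutathione, lay at 11, 2.58 and 1.67 CPM in mutant nTregs and 0.647, 1.48 and 0.212 CPM in mutant iTregs (-3.93 ± 1.08). Nkg7, a cytotoxic granule protein, lay at 191, 40.9 and 37.9 CPM in mutant nTregs (-2.68 ± 0.70). For Ifitm1, Ggt1 and Nkg7 the highest nTreg value was that of library 1, whose CD8 and NK markers are given above, and the part of these cells was not tested. Cdkn1a, given above, is among the 6. Fbxo2, a ubiquitin ligase adaptor, was higher in iTregs of both genotypes (5.19 in the mutant), and had 0 counts in WT nTregs.

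Genes that passed in opposite directions in the 2 genotypes moved by modest amounts. Slc35d1, a nucleotide sugar transporter, lay at 38.5, 35.8 and 39.2 CPM in mutant iTregs and 27, 29.9 and 29.1 CPM in mutant nTregs (log2 fold change 0.40 ± 0.08), and was lower in WT iTregs (-1.25). Tob1, an antiproliferative factor of resting T cells, was higher in mutant iTregs (0.29 ± 0.09) and lower in WT iTregs (-1.01). Evi5 (0.80 against -0.86) and Pip5k1b (0.85 against -0.73) did likewise. Without nTreg library 1 neither Tob1 (0.13, adjusted p = 0.187) nor Pip5k1b (0.47, adjusted p = 0.0557) passed in the mutant comparison. By library size alone Tob1 (0.10, adjusted p = 0.421) and Pip5k1b (0.65, adjusted p = 0.0606) also did not pass. The same held in a fit of the 6 mutant libraries alone (0.25 and 0.81), also with a replicate block (0.26 and 0.85), and for Pip5k1b without iTreg library 1 (0.64). In the reverse sense, H2-DMa, which loads peptide on MHC class II, was lower in mutant iTregs (-0.76 ± 0.14) and higher in WT iTregs (0.52). Itgam (-1.39 against 1.08) and Bola2 (-0.40 against 0.90) followed this pattern. Bola2 did not pass in the mutant without iTreg library 1 (-0.34, adjusted p = 0.115), iTreg library 2 (-0.34, adjusted p = 0.114) or nTreg library 2 (-0.38, adjusted p = 0.081), nor Itgam without iTreg library 4 (-1.18, adjusted p = 0.0525). Itgam, an integrin chain of myeloid and NK cells, was at 11.6, 3.26 and 3.22 CPM in mutant nTregs, with the high value again in library 1.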

How the data were processed

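Messenger RNA of 12 mouse libraries was sequenced. Per the labels' protocols, a NucleoSpin kit gave the RNA, and a TruSeq Stranded mRNA kit gave strand-specific libraries. The deposited values are raw gene counts, which the authors made with featureCounts 1.5.2 on Ensembl release 87 of GRCm38, per the file headers, reverse-stranded, at the gene of largest overlap, with multi-mapping reads counted at every alignment. Near-identical genes are therefore uncertain. Per the submitters' processing notes, bcl2fastq 2.18.0.12 and STAR 2.5.2b came before.

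Counts were tested with edgeR 4.0.16 (limma 3.58.1, R 4.3.3): filterByExpr, TMM scaling, 1 mean for each of 4 groups over all 12 libraries, and the two-sided quasi-likelihood F-test on 8 residual degrees of freedom, with Benjamini-Hochberg adjustment over all 17977 tested genes. All 12 libraries share 1 estimate of the spread. The genotype difference is the iTreg over nTreg change in the mutant minus that in WT. CPM values use TMM library sizes, and SE is the size of the log2 fold change divided by the square root of F. Where a group had 0 counts, the bound was set at 3 counts over the group, and counting intervals are at 95%. DESeq2 1.42.0 served as an alternative, and Python 3.11.15, pandas 2.3.3, scipy 1.17.1 and matplotlib 3.10.9 made tables and figures.

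The members, lists and tests were chosen with earlier results of these data known. Named genes are a fixed set of Treg, glutathione and serine genes, up to 4 genes per list with the smallest adjusted p and up to 2 against the list's direction, the 12 largest changes each way whose mean reached 5 CPM in either mutant group without overlap, the 6 largest genotype differences each way and the 4 largest each way among genes that passed in opposite directions. Bst2, Chaf1b, E2f1, E2f2, Ifit1, Ifit2, Irgm1, Isg15, Pycr1 and Tk1 were named after their values were seen. On simulated counts for 17592 genes, 50 genes were changed at each of 0.5, 1, 2 and 3 on the log2 scale. The mutant comparison recovered 48%, 90%, 100% and 100% of them, and the genotype difference 10%, 74%, 100% and 96%. A far larger share of genes passed in the real data, which sets another adjusted threshold, so these rates need not hold there. Alternatives were RLE and library-size scaling, no filter, at least 1 CPM in 3 libraries, DESeq2, a replicate block, the compared libraries alone, and leaving out each library. Some genes that the rule names are not reported here. Reads were not used here.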

Additional observations from a re-analysis of the deposited data

Results flagged for a closer look

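Each value here is the log2 change from nTregs to iTregs in the mutant minus that in WT cells, and each passed its own edgeR test, as did those of 1101 genes upward and 1291 downward. Under at least 1 alternative the call was lost for Abca1, Bach2, Bop1, Ccr4, Cdc45, Fbxo2, Ggt1, Gja5, Glo1, Hmgcs1, Irf8, Itgae, Itgam, Lrrc32, Malt1, mt-Nd6, Ndufb7, Ndufs7, Nkg7, Pdgfb, Pip5k1b, Prim1, Pycr1, Shmt1, Socs3, Txn1, Uqcrh and Vegfa. For Bach2, Hmgcs1, Irf8, Itgae, Malt1, mt-Nd6 and Uqcrh, among others, the call was lost in most of the fits that left out 1 library. Without mutant nTreg library 1 Malt1 did not pass (0.31, edgeR adjusted p = 0.0764). In the sentences below, "it" is the genotype difference of this change. Among Treg and T cell genes it was positive for Il2ra (0.48), Tigit (1.20), Itgb8 (2.36), Ccr4 (1.38), Bach2 (0.71), Cd28 (0.58) and Malt1 (0.46), and negative for Itgae (-1.16), Lrrc32 (-0.86), Il10ra (-0.85), Igfbp4 (-2.04), Irf8 (-0.60), Pmepa1 (-0.66), Cish (-0.68), Socs3 (-0.72) and Pdgfb (-0.88). In division and growth genes it was negative for E2f1 (-1.67), Pole (-1.11), Prim1 (-0.67), Cdc45 (-0.95), Chaf1b (-1.38), Tk1 (-1.07), Ncapd2 (-0.92), Cdkn1a (-2.72) and Bop1 (-0.49). In the serine and ATF4 lists it was negative for Phgdh (-0.78), Psat1 (-0.65), Shmt1 (-0.74), Shmt2 (-1.32), Mthfd2 (-0.85), Slc1a4 (-2.24), Asns (-2.53), Pycr1 (-1.34) and Stc2 (-2.76).

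In other metabolic and stress genes it was positive for Abca1 (1.09), Hmgcs1 (0.58), Msmo1 (0.57), Glo1 (0.35), Uqcrh (0.35), mt-Nd6 (1.46) and Rtp4 (1.03), and negative for Gclc (-0.65), Txn1 (-0.78), Vegfa (-1.54), Ndufb7 (-0.73) and Ndufs7 (-0.80). Among the largest differences over all genes it was positive for Abi3bp (3.59), Bcar3 (3.57), Cd36 (3.27), F13a1 (3.44), Gja5 (3.48) and Fcmr (2.58), and negative for Fbxo2 (-5.20), Ggt1 (-3.93), Adam11 (-3.58), Ifitm1 (-3.46) and Nkg7 (-2.68). Fbxo2 had no counts in WT nTregs, so the size of its value is not measured. Among genes that passed in opposite directions it was positive for Evi5 (1.66), Slc35d1 (1.65), Pip5k1b (1.58) and Tob1 (1.30), and negative for Itgam (-2.47), Bola2 (-1.30) and H2-DMa (-1.28).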

How the results depend on the processing

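In the mutant comparison the number of genes in each direction stayed within 1.5 times under every alternative run: 4397 to 5968 were higher and 5319 to 7832 lower. Leaving out 1 library gave 5508 to 5805 higher and 5802 to 7195 lower. The genotype difference depended more on the setting. It gave 518 higher and 2393 lower with library size alone, and 571 and 769 with a replicate block. Leaving out 1 library gave 494 to 1310 higher and 610 to 2146 lower, with counts over 1.5 times smaller without mutant iTreg libraries 1 and 2, WT iTreg libraries 1 and 2 and WT nTreg libraries 1 and 2. The cause was not tested. Whether the replicate numbers pair the libraries is not known. Deviations from group means correlated at 0.106, -0.00406 and 0.00936 in same-numbered mutant pairs. In mutant pairs of unlike number they lay between -0.0969 and 0.0849. The same-numbered WT pairs gave 0.0242, -0.0128 and -0.213, and WT pairs of unlike number lay between -0.241 and 0.202. With 3 libraries per group these values cannot show if animals were shared. With the block the mutant comparison gave 5744 higher and 6031 lower genes, and 4760 and 5319 with the 6 mutant libraries alone. Of 2684 values of 192 named genes in the mutant comparison, 2618 kept their direction and side of the threshold, 30 lost and 31 gained the call, and 5 changed sign. The 8 genes that lost it under at least 1 alternative were Bola2, Gclm, Gzmb, Itgam, Pip5k1b, Pycr1, Tiparp and Tob1. The sign changes were at genes that did not pass: E2f2 (-0.03) and Ikzf4 (-0.12) with library size alone, Ikzf4 (-0.15) without mutant nTreg library 1, Slc1a5 (0.03) without library 2 and Cd4 (0.01) without library 4. Cd4 was -0.23 without library 1 and Ikzf4 0.18 without library 4. Of 1152 values of named genotype differences 199 lost the call, in 28 of 64 genes, and none changed sign. Of 558 list counts 25 moved by over 1.5 times. RLE scaling of the lists, and the lists' genotype difference under each alternative, were added after seeing the data. On simulated data, changes of 0.5 on the log2 scale were found in 48% of genes in the mutant comparison and 10% in the genotype difference. Only 50 genes were changed at each size there, a far smaller share than passed in the real data, so these rates need not hold for it. Smaller differences may still be missed at this number of libraries.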

Other observations

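The genes in this section were chosen after their values were seen. With Cyp1a1 and Cyp1b1, Ahrr and Tiparp, which the aryl hydrocarbon receptor is known to induce, were looked up. Ahrr, the repressor of that receptor, lay at 6.97, 8.69 and 9.96 CPM in mutant iTregs and 0.6, 0.685 and 1.03 CPM in mutant nTregs (log2 fold change 3.47 ± 0.26, edgeR adjusted p = 2.24e-07). Tiparp, another target, was higher by less (0.50 ± 0.14, adjusted p = 0.00765), and did not pass when scaled by library size alone (0.31, adjusted p = 0.0849). The groups do not overlap for Ahrr.

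Single genes with large differences outside the lists are given as values, and no count over their families was made. Gja1, the gap junction protein connexin 43, lay at 17.1, 18.7 and 19.6 CPM in mutant iTregs and 0.0632, 0.411 and 0.426 CPM in mutant nTregs (5.88 ± 0.34, edgeR adjusted p = 2.15e-08). The desmosome genes Dsp (4.34 ± 0.20) and Perp (4.10 ± 0.45) were higher. Pdgfb, a secreted growth factor, lay at 77.2, 70.7 and 102 CPM against 3.44, 4.06 and 3.47 CPM (4.50 ± 0.15), and the growth factor genes Hbegf (4.41 ± 0.21) and Fgf2 (3.15 ± 0.28) were higher. The IL-2 and STAT5 target Cish was higher (0.62) and the feedback inhibitor Socs3 lower (-1.54).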
